A study of Mus musculus with 18 samples.

Results

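The genes of the mitochondrial ribosomal proteins were followed through 14 days of primary culture of mouse kidney tubule cells. Members were chosen by gene name, as every symbol made of Mrpl or Mrps, a number and at most 1 letter. The rule found 78 genes among the 55426 entries of the deposited tables, and all 78 were among the 18754 genes that passed a filter on low counts. By structure, 26 belong to the small subunit of the mitochondrial ribosome and 51 to the large subunit. Mrps36 carries the family's name but is known as a component of the alpha-ketoglutarate dehydrogenase complex of the tricarboxylic acid (TCA) cycle.

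The mitochondrial ribosome sits in the mitochondrial matrix and makes the few respiratory chain subunits that mitochondrial DNA still encodes. Its RNAs come from that DNA, while all its proteins are encoded in the nucleus, made on cytosolic ribosomes and imported. Part of these proteins descend from those of bacterial ribosomes and part exist only in mitochondria. The kidney proximal tubule is rich in mitochondria, since it drives its reabsorption by oxidative metabolism, and its cells begin to divide and lose differentiated functions when they are cultured. The question put to the genes was whether their RNA follows that of the respiratory chain or that of the machinery of cell growth.

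Polyadenylated RNA was sequenced on days 0, 1, 2, 4, 7 and 14 in 3 libraries a day, lettered A to C, which makes 18. Every group was of wild type C57BL/6J origin, from female mice 6 weeks old, with no transgene, no added agent and no treatment, so that time in culture is the only difference the labels give. Tubules were freed with collagenase, enriched on Percoll and kept on plastic without passage, and day 0 is the preparation before culture. Replicates carry the word biological in the labels, with nothing on whether different mice or dishes were used, so the p-values reflect the spread between these libraries, which may be technical.

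The libraries held 23799559 to 37579097 estimated counts, of which 86892 to 151685 fell on the 78 genes, and no member had fewer than 394 counts in any library. The label of proximal tubule was checked against 6 markers, which summed to 7305 ± 472 TPM (transcripts-per-million, mean ± SD, n = 3) on day 0 and 2.34 ± 0.409 TPM on day 14. All 6 proximal tubule markers fell on each later day. Day 0 also held 2006 ± 280 TPM of 6 markers of the loop of Henle and distal tubule and 578 ± 99.9 TPM of 6 collecting duct markers, against 23.6 and 96.7 TPM on day 14. No marker of these lists was at 0 in all 3 libraries of day 0. Pvalb was at 0 throughout days 7 and 14, and Slc4a1 throughout day 14. The 10 endothelial, immune, stromal and podocyte markers summed to 79.7 TPM on day 0 and 47.9 TPM on day 14. In such bulk samples fewer cells of a type and less RNA per cell cannot be told apart, and the part of these marker changes in the results below was not tested. Day 7 replicate C stood apart from the other day 7 libraries by higher RNA of replication and mitosis genes, so results that rest on it are also given without it.

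Levels are given as CPM, counts-per-million of a library size scaled by the TMM method, which compare a gene between libraries, or as TPM, which also divide by transcript length. A gene was called higher or lower at a Benjamini-Hochberg adjusted p under 0.05 in edgeR's quasi-likelihood test over all 18754 genes. All 78 members differed between at least some of the days, but so did 89.8% of all tested genes. On the TMM scale more members fell than rose from the start of culture. On day 1 against day 0, 52 of 78 were lower and 12 higher, where the background over all genes was 37.1% lower and 33.1% higher. The median member changed by -0.42 on the log2 scale. On day 2, 53 were lower and 12 higher (background 35.3% and 38.9%), and on day 4, 54 were lower and 8 higher (36.8% and 38.1%), with medians of -0.40 and -0.42. On day 7, 65 were lower and 2 higher (32.1% and 37.6%), with a median of -0.74. On day 14, 66 were lower and 3 higher (32.1% and 37.4%), with a median of -0.81. Without day 2 replicate A, or without any 1 of the day 14 libraries, 14 members in place of 8 were higher on day 4. For this and later refits that leave out 1 library, the share of all genes is not given here. Their counts thus describe only the genes counted.

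These counts depended on how libraries were scaled. TMM factors were lower on day 0 than in any later library, at 0.739 to 0.777 against 0.872 or more. With library sizes alone, the median of all genes against day 0 was higher than on the TMM scale by 0.28, 0.49, 0.46, 0.47 and 0.53 on the 5 later days in order. The member counts moved with it, to 33 lower and 23 higher on day 1 (background 29.8% and 41.7%), 24 and 32 by day 2 (25.6% and 52.8%), 22 and 29 at day 4 (27.5% and 50.9%), 40 and 17 at day 7 (22.5% and 53.4%) and 43 and 20 on day 14 (21.6% and 55.3%). The median member was then at -0.11, 0.11, 0.07, -0.23 and -0.25 on these days. With limma on log2(TPM + 1) the counts were 31 lower and 27 higher on day 1 (background 26.2% and 41.9%), 21 and 39 by day 2 (22.3% and 54.2%), 15 and 44 at day 4 (22.7% and 55.2%), 23 and 28 at day 7 (18.1% and 59.4%) and 20 and 30 at day 14 (16.6% and 62%). Its medians were -0.03, 0.20, 0.23, -0.01 and 0.035. So the sign of the median flipped with library sizes alone on days 2 and 4 and with TPM on days 2, 4 and 14, and with TPM more members were called higher than lower from day 2 on. With library sizes alone the share of members called higher was below that of all genes on each of the 5 days, and with TPM it was below it on every day but day 4. Summed TPM relate the members to all other RNA. The 78 genes summed to 7927 ± 357 at day 0, 7357 ± 337 a day later, 8618.5 ± 236 on day 2 and 8978 ± 198 by day 4. They were at 7731 ± 127 at day 7 and 7885 ± 244 at the end (mean ± SD, n = 3). The libraries of days 2 and 4, at 8359 or more, lay above those of day 0, at 8307 or less.

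Members called in the same direction under each of 5 scalings (TMM, library sizes alone, TMM without the mitochondrially encoded genes, DESeq2 size factors, and limma on log2(TPM + 1)) were fewer. On day 1, 31 members (39.7%) were lower and 9 (11.5%) higher under all of them, against 26.7% and 31.7% of all genes tested in all 5. On day 2 the counts were 21 lower and 8 higher (background 22.6% and 37.2%), on day 4 they were 15 and 7 (23.2% and 38.2%), and on day 7 they were 23 and 2 (18.4% and 36.1%). On day 14, 20 members were lower and 2 higher, against 17% and 35.1%. The shares lower on days 2 and 4 were thus near the background. The 9 that rose on day 1 under all 5 scalings were Mrpl15, Mrpl19, Mrpl33, Mrpl38, Mrpl47, Mrps18b, Mrps22, Mrps27 and Mrps30, and the 2 still higher on day 14 were Mrpl19 and Mrps18b.

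**Figure D1:**
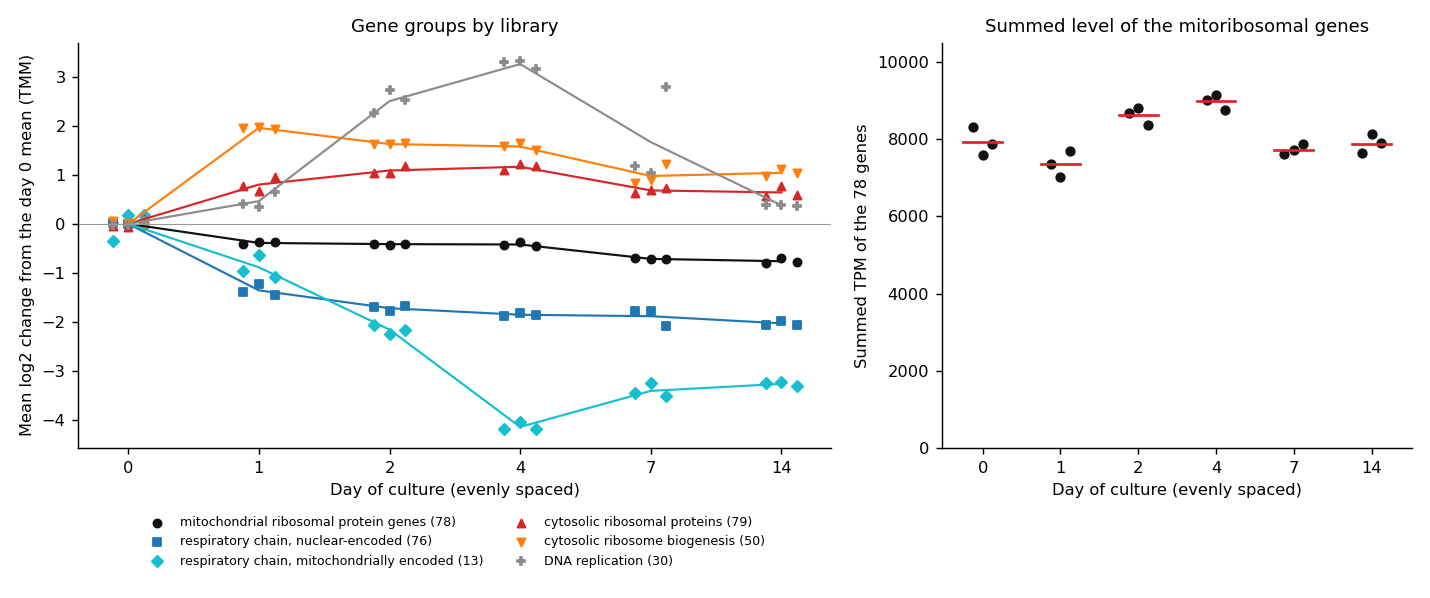
Left, mean log2 change from the day 0 mean on the TMM scale (y axis) of the mitochondrial ribosomal protein genes and of 5 comparison groups in each of the 18 libraries (points, with lines through the day means) by culture day (x axis, evenly spaced). Right, summed TPM of the 78 members in each library with the day means as bars. The members lie between the nuclear-encoded respiratory chain, at -1.35 on day 1, and the cytosolic ribosomal proteins, at 0.80, and their summed TPM goes from a mean of 7927 on day 0 to 7885 on day 14.

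The members lay between the systems they were compared with. The comparison lists were written with earlier results of these data known. Nuclear-encoded subunits of the respiratory chain, 76 genes, were lower without exception on every later day, with a median of -1.38 on day 1, -1.84 on day 4 and -2.07 on day 14. Uqcr11, a subunit of complex III, fell by 2.08 ± 0.06 (log2 ± SE) on day 4, and Cox6c, a subunit of complex IV, fell by 2.56 ± 0.09. The 13 mitochondrially encoded subunits, which the mitochondrial ribosome translates, were at -1.11 on day 1, -4.01 on day 4 and -3.46 on day 14, with 11 and then all 13 lower. Their RNA was measured after poly(A) selection, and mt-Co2 fell by 4.01 ± 0.15 on day 4. On the growth side, 75 of 79 cytosolic ribosomal proteins were higher on day 1 and 71 on day 14, with medians of 0.85 and 0.68, and Rpl12 was at 2.31 ± 0.12 on day 4. Ribosome biogenesis factors, 50 genes that process ribosomal RNA and assemble cytosolic subunits, had medians of 2.01 on day 1 and 1.08 on day 14, and Npm1 was at 2.44 ± 0.09 on day 4.

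A difference between 2 groups of genes within a library does not depend on the library's scaling factor. The mean change of the members lay above that of the nuclear-encoded respiratory chain by 0.97 (0.84 to 1.09 over the 3 libraries) on day 1, 1.43 (1.40 to 1.46) on day 4 and 1.27 (1.25 to 1.27) on day 14. It lay below that of the cytosolic ribosomal proteins by a difference of -1.19 (-1.33 to -1.05) on day 1, -1.58 on day 4 and -1.40 on day 14. Against the biogenesis factors the difference was -2.34 on day 1 and -1.80 on day 14, and against the mitochondrially encoded genes it was 0.50 on day 1, 3.71 on day 4 and 2.50 on day 14. In none of the 15 cultured libraries did the members' mean change come as low as that of the nuclear-encoded respiratory chain or as high as that of the cytosolic ribosome.

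**Figure D2:**
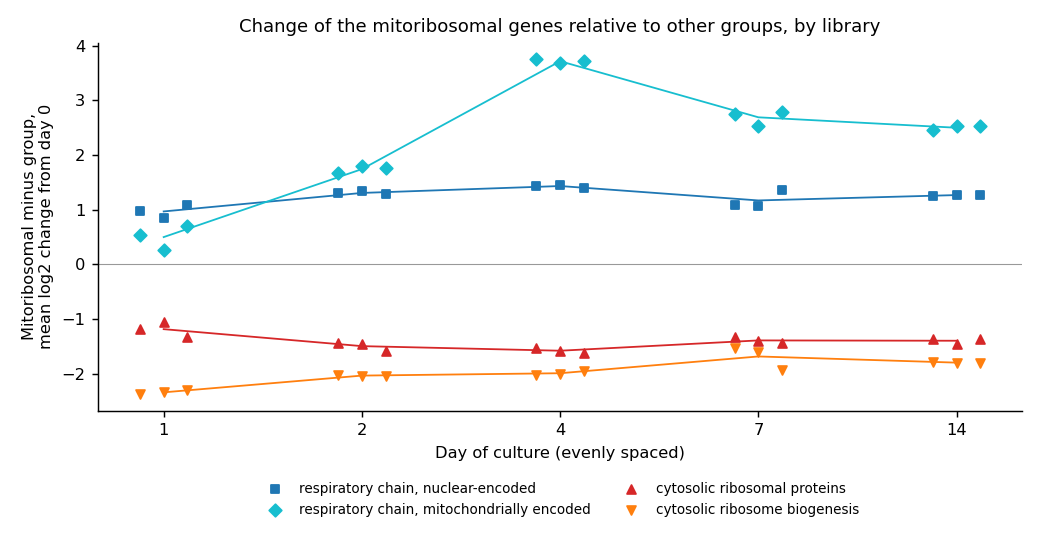
Mean log2 change from day 0 of the mitochondrial ribosomal protein genes minus that of each comparison group (y axis) in each library, by culture day (x axis). Points above 0 are libraries in which the members changed less far downward than the group, as for the respiratory chain (0.97 on day 1), and points below 0 those in which they lay under it, as for the cytosolic ribosomal proteins (-1.19 on day 1).

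Likeness was also described gene by gene, as the mean absolute difference over the 6 days between a gene's log2 CPM, centred on its own mean, and the mean profile of each group. Of the 78 members, 32 lay nearest to the respiratory chain, 13 to TCA cycle enzymes, 29 to cytosolic ribosomal proteins, 4 to biogenesis factors and 0 to the mitochondrially encoded, replication or mitosis groups. Of the 18390 genes outside the lists, 11.9% lay nearest to the respiratory chain, 16.2% to the TCA cycle, 48.7% to cytosolic ribosomal proteins and 11.7% to biogenesis factors. By this measure the members split into 45 on the oxidative side and 33 on the ribosome side. The measure counts the size of a change as well as its direction. A gene that changes little can thus fall to the group of smaller range. Mrpl22, Mrpl36, Mrps6, Mrps14 and Mrps15 were nearest to cytosolic ribosomal proteins, though they were lower on day 1 under all 5 scalings. The split was 44 and 34 with TPM and also without day 7 replicate C, though the respiratory chain then took 14 and 24 members respectively. The mean member profile was about as far from the respiratory chain (0.36) as from the TCA cycle (0.36) and the cytosolic ribosomal proteins (0.39), and farther from mitosis genes (2.31). Mrpl54, Mrpl49 and Mrps5 lay closest to the members' own mean profile, and Mrpl34, Mrpl50 and Mrps18b farthest from it.

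The members spanned a smaller range than most genes. Between its highest and lowest day the median member differed by 0.91 on the log2 CPM scale, against 1.68 for all tested genes. Day 0 was the highest day for 52 of the 78 (66.7%, against 31.7% of all genes), and day 14 was the lowest for 36 (46.2%, against 14.3%). Per length, levels of the 78 on day 0 ran from 14.1 ± 1.44 TPM for Mrpl19 and 17.7 ± 0.803 TPM for Mrps30 to 447 ± 27.6 TPM for Mrpl42 and 634 ± 30.3 TPM for Mrps21. Across the 78 genes, the day 1 change was related to the day 0 TPM with a Spearman rho of -0.54, and across 18741 genes with a rho of -0.26. Both measures use the day 0 libraries, and genes are not independent replicates. With the length of the longest transcript the rho was 0.34 across the members and -0.02 across all genes.

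**Figure D3:**
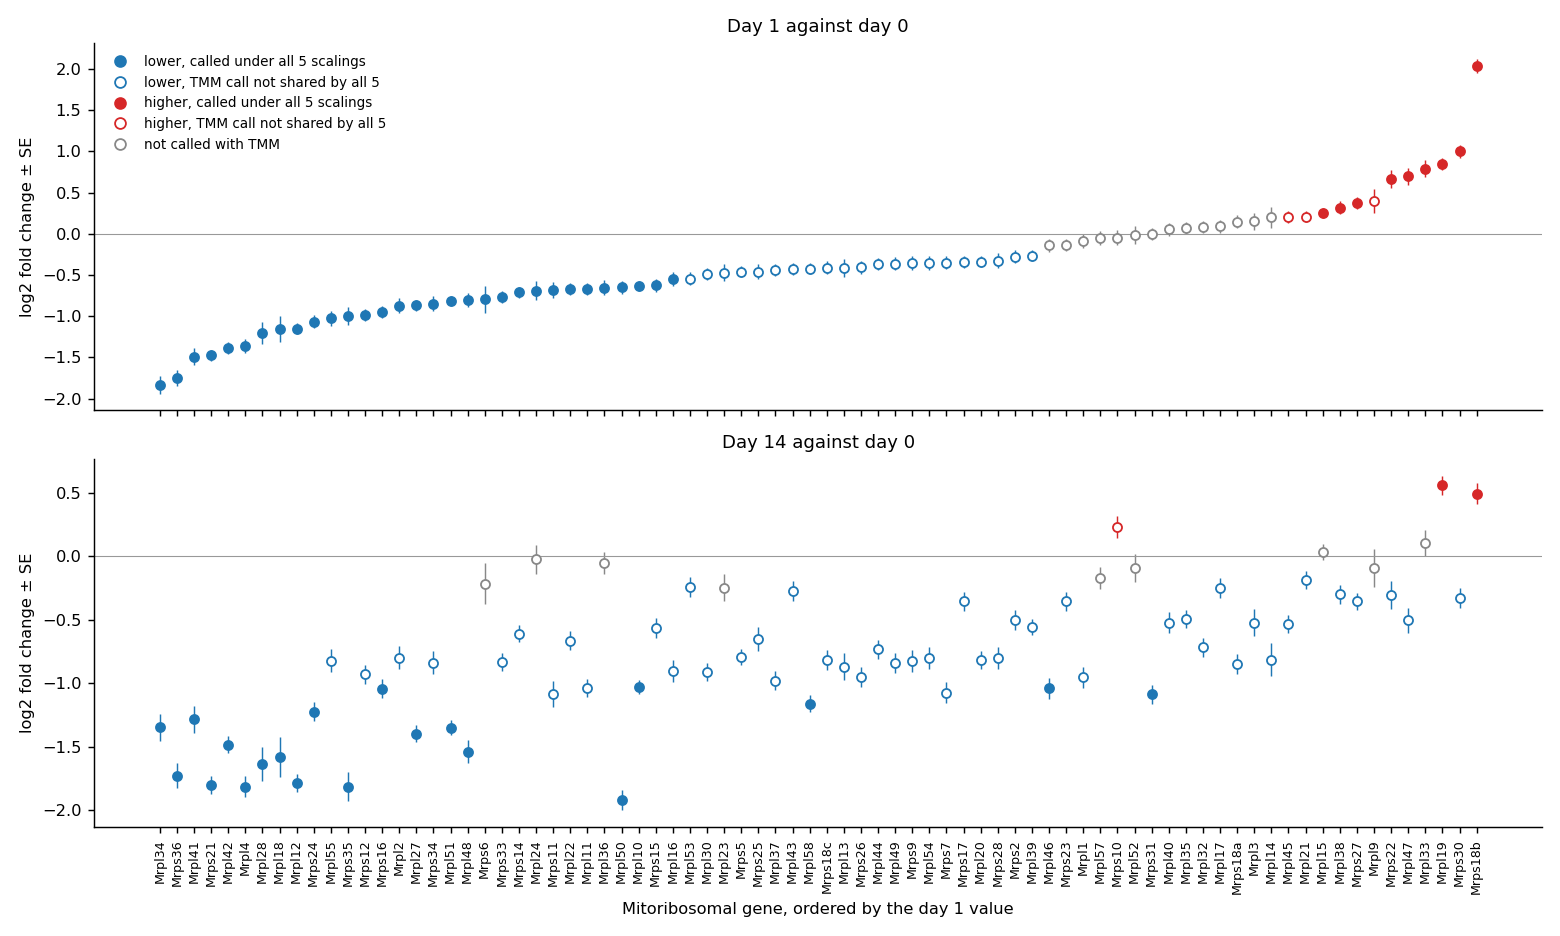
Log2 fold change (y axis, bars of 1 SE) of each of the 78 members (x axis, ordered by the day 1 value) on day 1 against day 0 (top) and on day 14 against day 0 (bottom), with filled points for calls shared by all 5 scalings, open coloured points for calls on the TMM scale not shared by all 5, and grey points for members not called. Mrps18b stands at 2.03 on day 1, most members lie below 0 on day 14, and both panels share the day 0 libraries.

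By structure, 20 of 26 small subunit genes were lower on day 1 and 3 higher (median -0.43), and 31 of 51 large subunit genes were lower and 9 higher (median -0.41), where 37.1% of all genes were lower and 33.1% higher. On day 14 the counts were 23 lower and 2 higher for the small subunit, and 42 and 1 for the large subunit (background 32.1% and 37.4%). Proteins with a bacterial homologue, 46 genes, had a day 1 median of -0.48 with 33 lower and 6 higher. The 31 classed as mitochondria-specific had a median of -0.36 with 18 lower and 6 higher. That class holds Mrps18a and Mrps18b, although both are related to bacterial S18. Within the small subunit, 15 of 16 bacterial homologues were lower on day 1 and 0 higher (median -0.54). Of the 10 classed as mitochondria-specific, 5 were lower and 3 higher, Mrps18b among the latter (median -0.27). Within the large subunit the counts were 18 lower and 6 higher of 30 bacterial homologues (median -0.48) and 13 and 3 of the 21 others (median -0.36). No test of these differences between classes was made.

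The S18 family took different courses on the TMM scale, and on day 1 only Mrps18b was called under all 5 scalings. Mammals carry 3 genes related to the bacterial small subunit protein S18: Mrps18c and Mrps18b encode small subunit proteins, while the product of Mrps18a sits in the large subunit. Mrps18b (GRCm38 chr17:35910379-35916389, minus strand) measured 43.0, 44.5 and 43.7 CPM on day 0 and 179, 171 and 188 CPM on day 1. It declined to 119, 99.8 and 114 CPM on day 2 and 85.1, 89.3 and 76.0 CPM on day 4. It stood at 56.7, 60.8 and 58.6 CPM on day 7 and at 63.3, 64.8 and 57.2 CPM on day 14. No library of a later day overlapped day 0. The day 1 change of 2.03 ± 0.08 (adjusted p = 1.2e-11) was the largest rise among the members, and the day 14 change was 0.50 ± 0.08 (adjusted p = 4.2e-05). On the annotation 30.5% of its exonic bases overlap the opposite-strand gene Gm16279, and the strandedness of the counting is not given in the sources used here.

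Mrps18a (chr17:46110986-46128910, plus strand) took another course. It was at 97.2, 88.3 and 96.1 CPM on day 0, at 107, 98.1 and 107 CPM on day 1 and at 108, 93.3 and 103 CPM on day 2. It then measured 60.4, 64.2 and 62.8 CPM on day 4 and 52.0, 54.8 and 49.8 CPM on day 14. The libraries of day 1 lay just above those of day 0, and the change of 0.15 ± 0.08 was not called (adjusted p = 0.089), although library sizes alone gave 0.46 and called it. From day 2 to day 4 it fell by 0.70 ± 0.08 with no overlap (adjusted p = 3.8e-06). The day 14 change of -0.85 ± 0.08 was -0.01 on the log2(TPM + 1) scale and not called there.

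Mrps18c (chr5:100798627-100804471, plus strand), whose product takes the place of bacterial S18, measured 43.8, 47.6 and 45.6 CPM on day 0 and 34.5, 32.2 and 36.3 CPM on day 1. It was at 41.9, 40.7 and 43.7 CPM on day 2, at 35.5, 38.2 and 38.01 CPM on day 4 and at 27.0, 26.0 and 24.7 CPM on day 14. Day 1 lay below day 0 without overlap, by -0.41 ± 0.08 (adjusted p = 0.00025), and day 14 by -0.82 ± 0.08. On the log2(TPM + 1) scale these changes were 0.013 and 0.080, and with library sizes alone they were -0.10, which was not called, and -0.25. The direction for Mrps18c against day 0 was thus not the same on every scale, whereas Mrps18b rose on day 1 under all 5 scalings.

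**Figure D4:**
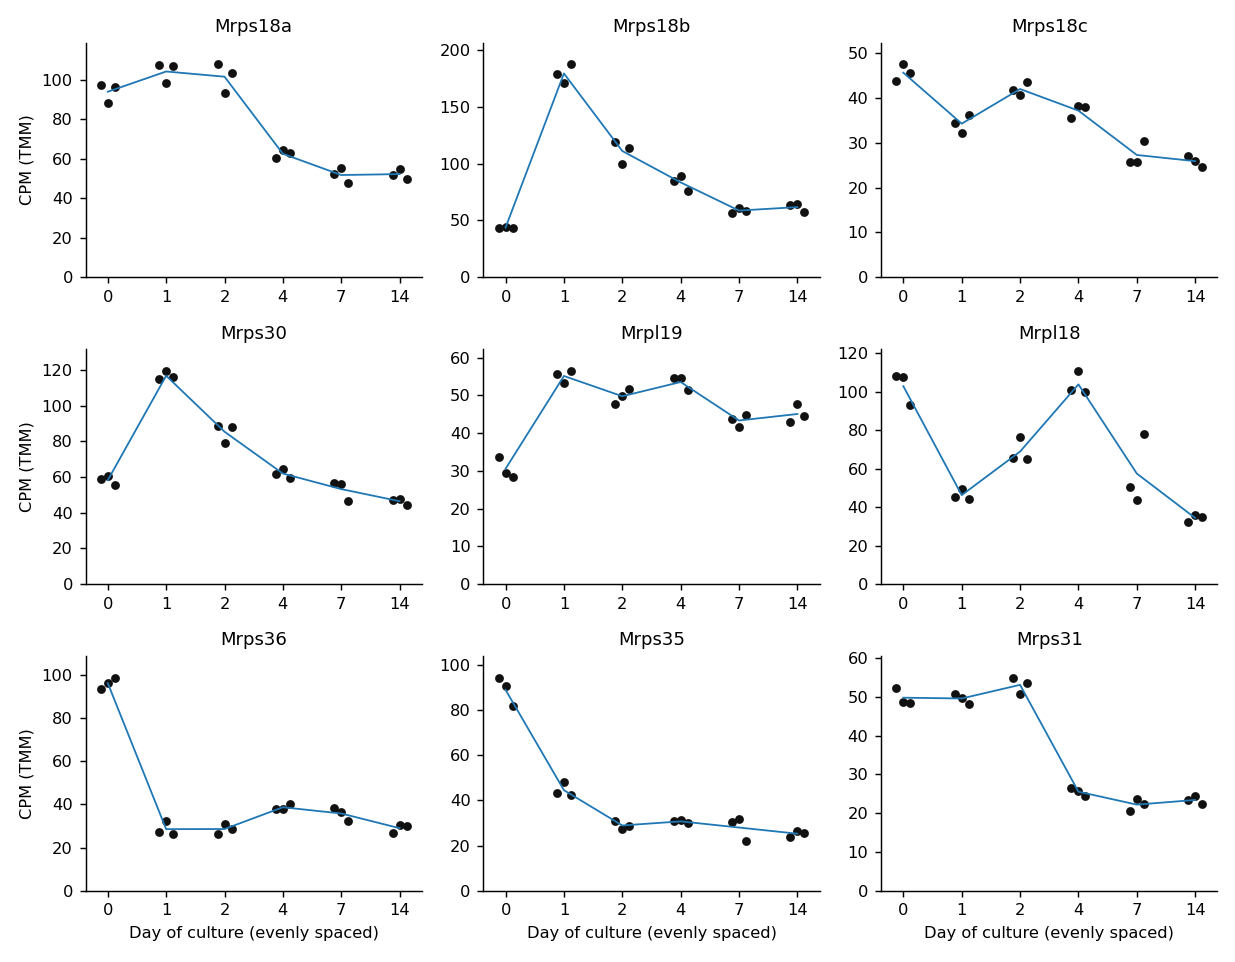
CPM (y axis) of 9 members in each library (points) and as day means (lines) over the culture days (x axis). Mrps18b rises to 171 to 188 CPM on day 1 and Mrps31 drops between days 2 and 4. On this TMM scale Mrpl18 returns to its day 0 level on day 4.

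The promoters of these 3 genes are shown because their RNAs part on day 1. Each is the 250 bases before the start in RefSeq (GRCm38.p6), on the gene's own strand, with any match to the searched motifs in capitals. These motifs were CGCATGCG (the core bound by NRF1, a regulator of nuclear genes for mitochondria), CCGGAAGT (ETS factors), AAGATGGC (YY1), CACGTG (the E-box bound by MYC) and TCAAGGTC (estrogen-related receptors), each on both strands.
Mrps18a, chr17:46110754-46111003, plus strand: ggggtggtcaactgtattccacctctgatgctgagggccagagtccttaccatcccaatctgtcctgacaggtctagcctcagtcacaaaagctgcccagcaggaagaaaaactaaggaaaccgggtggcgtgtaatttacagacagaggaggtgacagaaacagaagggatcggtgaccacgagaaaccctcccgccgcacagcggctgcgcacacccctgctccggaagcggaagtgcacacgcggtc
Mrps18b, chr17:35916441-35916690, minus strand: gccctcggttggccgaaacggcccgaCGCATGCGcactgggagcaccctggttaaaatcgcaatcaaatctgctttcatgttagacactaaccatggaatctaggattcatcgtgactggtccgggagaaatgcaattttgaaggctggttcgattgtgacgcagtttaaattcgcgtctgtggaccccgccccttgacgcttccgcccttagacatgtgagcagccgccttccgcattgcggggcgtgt
Mrps18c, chr5:100798509-100798758, plus strand: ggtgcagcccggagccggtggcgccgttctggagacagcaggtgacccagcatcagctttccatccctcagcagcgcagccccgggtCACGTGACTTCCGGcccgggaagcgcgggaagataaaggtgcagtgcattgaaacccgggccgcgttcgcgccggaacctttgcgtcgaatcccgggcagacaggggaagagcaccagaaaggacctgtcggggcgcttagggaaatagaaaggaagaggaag
Mrps18b holds 1 NRF1 core, and Mrps18c holds an E-box directly followed by an ETS motif on the other strand. The printed bases of Mrps18a hold no match, and its YY1 motif lies in the bases after the start. The RefSeq start of Mrps18b lies upstream of the GENCODE start whose coordinates are given above. On the annotation the divergent gene Ppp1r10 starts 45 bases from that GENCODE start. The printed bases of Mrps18b, with the core, thus also lie downstream of the start of Ppp1r10. The divergent gene Helq starts 29 bases from the GENCODE start of Mrps18c. The absence of a match says only that these letters are not in the window.

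Other members also rose on day 1. Mrps30 (chr13:118378381-118387252, minus strand), a large subunit protein found only in mitochondria despite its name, went from 58.9, 60.3 and 55.5 CPM to 115, 120 and 116 CPM, a change of 1.00 ± 0.08 (adjusted p = 1.3e-08). By day 4 it was back at 61.4, 64.7 and 59.7 CPM, which overlapped day 0. On day 14 it was at 47.3, 47.4 and 44.5 CPM, a change of -0.33 ± 0.08 (adjusted p = 0.0014) that turned to 0.24 with library sizes alone. Mrpl19 (chr6:81957851-81965958, minus strand), a homologue of bacterial L19, kept its rise. It was at 33.7, 29.5 and 28.4 CPM on day 0, at 55.5, 53.3 and 56.5 CPM a day later, at 54.7, 54.5 and 51.4 CPM on day 4 and at 43.0, 47.6 and 44.5 CPM on day 14. The changes were 0.85 ± 0.07 on day 1 (adjusted p = 5.1e-08) and 0.56 ± 0.07 on day 14 (adjusted p = 5.1e-06), with no overlap on either day. Of its exonic bases, 36.0% overlap Gcfc2. Mrpl33, a small large-subunit protein, was at 0.79 ± 0.10 on day 1 and 1.105 on day 2, and Mrps22, a small subunit protein found only in mitochondria, at 0.67 ± 0.11 and 0.81. On day 14 they were at 0.11, which was not called, and at -0.30. Mrps10 was the remaining member called higher on day 14, by 0.23 ± 0.09 (adjusted p = 0.028), and it was not called with DESeq2 size factors.

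Among the large falls on day 1 were those of Mrpl34, Mrps36, Mrpl41, Mrps21 and Mrpl42. All were still lower than on day 0 on day 14 under all 5 scalings. In between, Mrpl34, Mrps36, Mrpl41 and Mrpl42 rose from day 2 to day 4 under all 5 scalings. Mrpl34 (chr8:71464959-71465747, plus strand), a homologue of bacterial L34, dropped from 70.2, 60.2 and 65.8 CPM to 15.6, 21.0 and 18.5 CPM, by 1.83 ± 0.11 (adjusted p = 6.1e-10). It regained part of this, to 30.2, 33.0 and 31.3 CPM on day 4, and stood at 24.6, 25.5 and 26.9 CPM on day 14. Mrps36, the TCA cycle component, dropped from 93.2, 96.4 and 98.7 CPM to 27.2, 32.3 and 26.1 CPM, by 1.75 ± 0.10 (adjusted p = 2.7e-10), and was at 26.8, 30.3 and 29.8 CPM on day 14. Its changes of -1.31 on day 4 and -1.73 on day 14 compare with TCA list medians of -1.86 and -2.08. Mrpl41, a large subunit protein found only in mitochondria, went from 47.4, 47.9 and 45.3 CPM to 14.3, 18.6 and 17.2 CPM. It was at 20.04, 19.6 and 18.02 CPM on day 14. Mrps21 and Mrpl42, the most abundant members per length on day 0, were at -1.47 and -1.38 on day 1 and at -1.80 and -1.48 on day 14. In none of these was there any overlap between day 0 and day 1.

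A further set fell in steps. Mrpl4 (chr9:21002738-21008839, plus strand), which lines the peptide exit tunnel, measured 144, 137 and 139 CPM on day 0, 55.5, 57.3 and 51.0 CPM on day 1 and 39.2, 43.1 and 41.0 CPM on day 4. Its change of -1.36 ± 0.08 on day 1 became -1.77 on day 4 and -1.81 on day 14. Mrpl50, found only in mitochondria, measured 177, 185 and 165 CPM on day 0, 116, 113 and 107 CPM a day later, 54.3, 54.4 and 52.8 CPM on day 4 and 43.2, 48.5 and 47.6 CPM on day 14. Its change went from -0.65 ± 0.08 on day 1 to -1.26 a day later, -1.71 by day 4 and -1.92 by day 14, the lowest of the members on that day. Mrps35 went from 94.4, 90.5 and 81.9 CPM on day 0 to 43.2, 48.0 and 42.4 CPM on day 1 and 30.8, 27.4 and 28.5 CPM on day 2. The respiratory chain list also went down further after day 1, with a median that went from -1.38 to -1.84 between days 1 and 4.

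Mrps31 (chr8:22411361-22429665, plus strand), a small subunit protein found only in mitochondria, was called on no day before day 4. It was at 52.2, 48.7 and 48.5 CPM on day 0, at 50.8, 49.8 and 48.2 CPM on day 1 and at 55.0, 50.6 and 53.7 CPM on day 2. On day 4 it was at 26.6, 25.7 and 24.3 CPM and on day 14 at 23.4, 24.5 and 22.4 CPM. The fall from day 2 to day 4 was -1.05 ± 0.07 (adjusted p = 6.5e-08), with no overlap between those days.

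The remaining functional sites followed the majority. Mrpl12, the stalk protein that engages translation factors, was at 220, 215 and 212 CPM on day 0, at 95.8, 97.9 and 97.3 CPM a day later, at 116, 132 and 111 CPM on day 4 and at 59.6, 66.3 and 61.7 CPM on day 14. Its changes were -1.15 ± 0.07, -0.85 and -1.79, and it rose by 0.48 from day 2 to day 4. Mrps12, of the decoding centre, was at -0.98 ± 0.08 on day 1 and -0.93 on day 14, though the latter was not called with TPM. Mrps5, also of the small subunit, was at -0.46 on day 1 and -0.79 on day 14, both above 0 with TPM. Mrpl58, a peptidyl-tRNA hydrolase that rescues stalled ribosomes, went from -0.42 on day 1 to -1.16 on day 14. Mrps34 was at -0.85 and -0.84, turning to 0.013 on day 14 with TPM, and 77.8% of its exonic bases overlap other genes. Mrpl23, near the exit of the peptide tunnel, was at -0.47 on day 1 and -0.25 on day 14, and the latter turned to 0.32 with library sizes alone.

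Between consecutive days the members first moved both ways. From day 1 to day 2, 9 members rose and 14 fell (background 17% and 17.5%), and under all 5 scalings 9 rose and 6 fell (15.6% and 10.3%), so that the shares were near the background or below it. With library sizes alone 39 rose and 6 fell (29.3% and 11.7%), with TPM 37 rose and 6 fell (30.4% and 10.5%), and without day 7 replicate C 14 rose on the TMM scale. Mrpl18, a homologue of bacterial L18, had the largest rise, of 0.57, and Mrps15 and Mrpl52 rose by 0.47 ± 0.08 and 0.41 ± 0.11. From day 2 to day 4, 22 rose and 20 fell (19.4% and 22.1%), and under all 5 scalings 18 rose and 14 fell (18.6% and 17.8%). Without day 2 replicate A only 10 fell, and without 1 of the day 14 libraries 11 or 12. The shares of all genes in these refits, and in that without day 7 replicate C, are not given here. The rises included Mrpl36 at 0.60 ± 0.09, Mrpl18 at 0.59 and Mrpl34 at 0.55.

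From day 4 to day 7 most members fell. Of the 78 members 49 fell and 1 rose, where 15.9% of all genes fell and 22% rose, and the median was -0.27. Under all 5 scalings 37 (47.4%) fell and 0 rose, against 13.4% and 19.2% of all genes. At an unadjusted p under 0.05 in edgeR's test 2 rose, and DESeq2's Wald test called 0 higher. In this step the scalings differed little, by at most 0.04 in the median of all genes, and 30 members fell in each of the 30 fits made. The share of all genes is not given here for the unadjusted p, the Wald test or the 30 fits. Both subunits took part, with 16 of 26 small subunit and 33 of 51 large subunit genes lower. Mrps27, a small subunit protein with repeats that bind RNA, and Mrps22 each fell by 0.69. Mrpl12 fell by 0.68 (adjusted p = 9.9e-06). Without day 7 replicate C, 50 members fell and 4 rose, with a median of -0.25, and the share of all genes is not given for that refit.

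In that step the nuclear-encoded respiratory chain had a median near 0, the mitochondrially encoded genes rose and the growth groups fell. The median of the 76 nuclear-encoded respiratory chain genes was -0.02, with 14 lower and 5 higher, and 10 of 13 mitochondrially encoded genes rose, with a median of 0.74. Of the cytosolic ribosomal proteins 72 of 79 fell (median -0.49), of the biogenesis factors 47 of 50 (-0.61), of the replication genes 29 of 30 (-1.33) and of the mitosis genes 24 (-1.73). The medians without day 7 replicate C were 0.06 for the respiratory chain, with 17 higher and 11 lower, -0.54 for the cytosolic ribosomal proteins, -0.77 for biogenesis, -2.22 for replication and -3.01 for mitosis. The members' median was thus below that of the nuclear-encoded respiratory chain and above that of the cytosolic ribosome with and without that library. From day 1 to day 2, by contrast, 56 respiratory chain genes fell and 1 rose, 47 cytosolic ribosomal proteins rose and 29 biogenesis factors fell, while the members' median was 0.00.

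**Figure D5:**
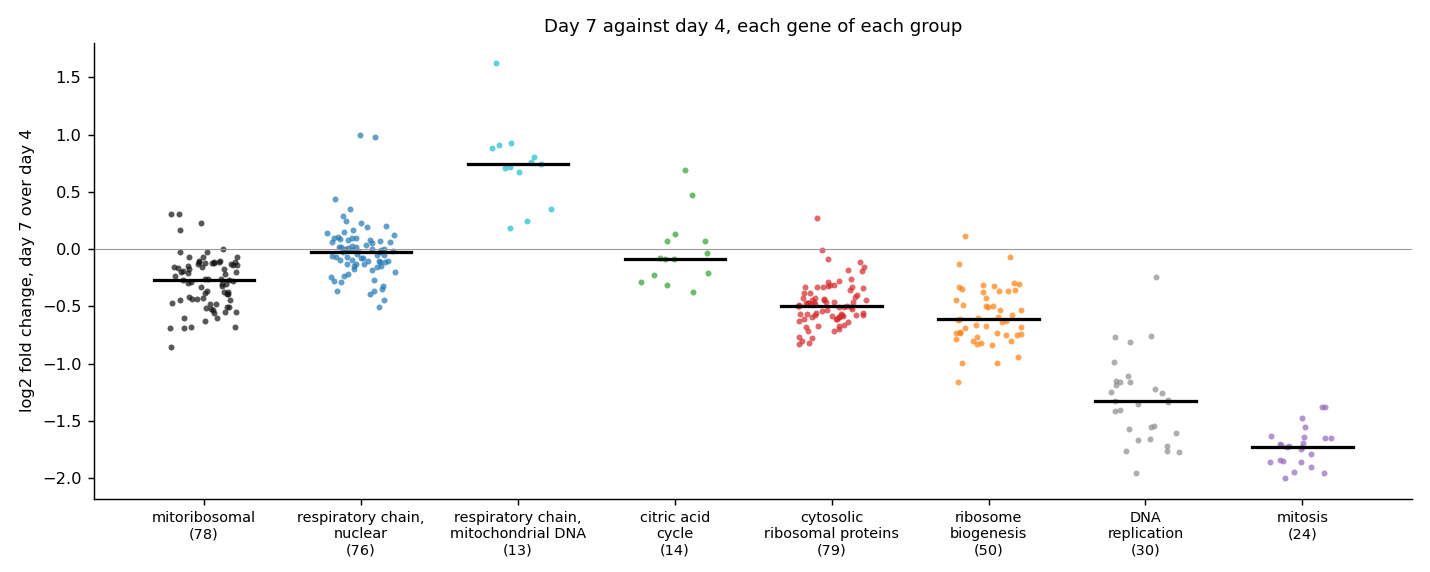
Log2 fold change of day 7 against day 4 (y axis) for every gene (point) of the members and of the comparison groups (x axis), with the median of each group as a line. The members' median of -0.27 lies between those of the respiratory chain (-0.02) and the cytosolic ribosomal proteins (-0.49).

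Mrpl18 fell, returned and fell again. It measured 108, 108 and 92.8 CPM on day 0, 45.2, 49.2 and 44.2 CPM a day later, 65.6, 76.2 and 64.7 CPM on day 2 and 101, 111 and 99.7 CPM on day 4. It then measured 50.6, 43.9 and 77.8 CPM on day 7 and 32.1, 36.0 and 34.9 CPM on day 14. On the TMM scale day 4 overlapped day 0 (0.01, adjusted p = 0.94), and every other day lay below it. Under all 5 scalings Mrpl18 was lower than on day 0 on days 1 and 14, but not on days 2 and 7. Its day 4 level against day 0 depends on the scaling. With library sizes alone the day 4 median of all genes was higher by 0.46. The day 7 library C was the highest of its day. The fall from day 4 to day 7 was -0.85 (adjusted p = 0.00059) with that library and -1.13 without it. Mrpl24, a homologue of bacterial L24, was the single member called higher from day 4 to day 7, by 0.31 ± 0.11 (adjusted p = 0.043). Its day 7 libraries were at 56.1, 53.8 and 38.3 CPM and overlapped the 38.4, 42.4 and 38.6 CPM of day 4. The call was lost in most alternatives, among them DESeq2 size factors and leaving out day 7 replicate A or B, and without replicate C the change was 0.46.

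From day 7 to day 14 the members settled. The median was -0.03, 6 members fell and 0 rose in edgeR's test, against 7.46% and 5.07% of all genes. At an unadjusted p under 0.05, 16 fell and 3 rose, and DESeq2's Wald test called 9 lower and 1 higher. The share of all genes is not given here for either rule, so these counts have no background to be read against. Mrpl18, Mrpl45 and Mrps21 fell under all 5 scalings (0 rose; background 3.5% and 4.37%), by 0.74, 0.40 and 0.37. Without day 7 replicate C, 11 fell, and without day 14 replicate A or C, 3 fell, again with no share of all genes given.

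Proteins that act with the mitochondrial ribosome were read from lists written in the same way, with counts and medians on the TMM scale alone. On that scale 36.8% of all genes were lower and 38.1% higher on day 4, and 32.1% and 37.4% on day 14. Of 5 ribosomal proteins under other names, 0 were higher and 2 lower on day 1 (background 33.1% and 37.1%), 2 higher and 3 lower on day 4 and 0 and 3 on day 14. On day 4, Ptcd3 was at 0.47 ± 0.11 and Chchd1 at 0.31 ± 0.09, while Aurkaip1 was at -0.68 ± 0.07 and Dap3 at -0.53 ± 0.07, all of them small subunit proteins. Of 17 translation factors 13 were lower and 2 higher on day 1 (median -0.69) and 16 and 1 on day 14 (-0.90). Gfm1, the elongation factor that moves the ribosome along its messenger, was at -0.98 ± 0.07 on day 4 and Mtif3, an initiation factor, at -1.15 ± 0.10. Of 20 mitochondrial tRNA synthetases and related enzymes, 14 were lower and 3 higher on day 1 (median -0.76) and 15 and 1 on day 14 (-0.47). Gatb, of the amidotransferase that forms glutaminyl-tRNA, was at -2.46 ± 0.15 on day 4, and Mars2, which charges the methionine tRNA, at 0.44 ± 0.12.

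Of 26 assembly and RNA modification factors, 10 were lower and 10 higher on day 1 (median -0.05), and 17 and 3 on day 14 (-0.42). Over all genes 37.1% were lower and 33.1% higher on day 1, and 32.1% and 37.4% on day 14. Grsf1, which binds RNA in mitochondrial granules, was at -1.18 ± 0.08 on day 4, and Trub2, a pseudouridine synthase, at 0.41 ± 0.09. Of 31 import genes, 14 were lower and 12 higher on day 1 (median -0.11), and 26 and 4 on day 14 (-0.76). Tomm40, the outer membrane channel, was at 1.19 ± 0.10 on day 4, and Pmpcb, of the peptidase that removes targeting sequences, at -2.06 ± 0.09. Of 10 genes for upkeep of mitochondrial DNA, 5 were lower and 1 higher on day 1 and 8 and 0 on day 14. From day 4 to day 7, 9 translation factors fell and 0 rose, 5 synthetases fell and 1 rose, and 22 import genes fell and 1 rose. Of all genes 15.9% fell and 22% rose in that step. Summed TPM went from 596 on day 0 to 785 on day 14 for the assembly factors. For import they went from 4551 to 5119, for upkeep from 241 to 307 and for the synthetases from 1192 to 1261. The translation factors went down, from 586 to 534. The other lists were thus mostly lower on the TMM scale but higher in summed TPM.

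Of 9 known regulators of mitochondrial genes and of growth, 6 were higher and 3 lower on day 1 (background 33.1% and 37.1%). On day 14 the counts were 4 and 4 (37.4% and 32.1%). Pprc1, a coactivator of the PGC-1 family, went from 13.7 ± 1.82 CPM on day 0 to 113 ± 7.73 CPM on day 4, at 3.03 ± 0.11. Myc, which drives growth genes, went from 11.99 ± 3.45 to 208 ± 5.20 CPM, at 4.10 ± 0.17. Ppargc1a, the coactivator that promotes oxidative genes, went from 155 ± 19.3 to 10.3 ± 0.890 CPM, at -3.91 ± 0.52, and Esrra, an estrogen-related receptor, from 140 ± 6.77 to 35.7 ± 2.76 CPM, at -1.97 ± 0.20 (mean ± SD, n = 3; log2 ± SE).

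RefSeq promoter windows (250 bases before and 50 after the start, GRCm38.p6) were matched by symbol for 69 members, with 75 windows. The NRF1 core CGCATGCG was in the windows of 7 genes, in 9.33% of member windows against 1.87% of all 32851 windows. The ETS motif CCGGAAGT was found in 12 genes (16.0% against 3.89% of windows) and the YY1 motif AAGATGGC in 12 (16.0% against 2.75%). The E-box CACGTG was found in 7 windows of 5 genes (9.33% against 7.15% of windows). Counted by gene, its share was 7.25% of members against 8.09% of all genes. The estrogen-related receptor motif TCAAGGTC was found in 1 gene (1.33% against 1.05% of windows). None of these strings contains another, and 38 of the 69 genes had none of them. The NRF1 core is shown in its surroundings because Mrps18b carries it, a choice made after the values were seen. Mrpl32 holds it at 2 places. The cores of Mrpl17, Mrpl32 and Mrpl39 lie before the RefSeq start but downstream of the GENCODE start, within the genes as GENCODE annotates them. Stretches of 6 of the 7 genes are given, each on the gene's own strand with the core in capitals.
Mrpl10, chr11:97041432-97041469, plus strand: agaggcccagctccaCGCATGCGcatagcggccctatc
Mrpl17, chr7:105811088-105811112, minus strand: cgcgccgagttactgCGCATGCGtc
Mrpl32, chr13:14613101-14613138, minus strand: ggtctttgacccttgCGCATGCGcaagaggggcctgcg
Mrpl32, chr13:14613038-14613075, minus strand: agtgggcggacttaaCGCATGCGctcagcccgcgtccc
Mrpl39, chr16:84735346-84735383, minus strand: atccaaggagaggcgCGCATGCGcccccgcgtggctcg
Mrpl9, chr3:94443294-94443331, plus strand: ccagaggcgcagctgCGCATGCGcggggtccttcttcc
Mrps18b, chr17:35916642-35916679, minus strand: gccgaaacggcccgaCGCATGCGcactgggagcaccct
The 7 genes with the core had a median day 1 change of 0.08 and a median day 14 change of -0.56, and the 62 without it -0.45 and -0.82. These medians count Mrpl22, whose stretch is not given and which was at -0.67 on day 1, the lowest of the 7. Of the 6 genes shown, Mrps18b was at 2.03, Mrpl9 at 0.40, Mrpl17 at 0.09, Mrpl32 at 0.08, Mrpl39 at -0.26 and Mrpl10 at -0.63 on day 1, so their range took in both directions. The medians with and without the ETS motif were -0.41 and -0.46, and with and without the YY1 motif -0.40 and -0.43. A match is a string in the window and not a measured binding site.

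On the annotation (GENCODE vM21) the 78 genes are protein coding and spread over 17 chromosomes. For 28 of them exons overlap a gene on the opposite strand, for 8 a gene on the same strand, and 23 start within 1000 bases of a divergent protein-coding gene. Mrps18b starts 45 bases from Ppp1r10, and Mrpl36 starts 29 bases from Ndufs6, a complex I subunit. Since the strandedness of the counting is not given, reads of overlapping genes may be shared, with the largest overlaps at Mrpl53 (88.0% of exonic bases), Mrps34 (77.8%) and Mrps25 (69.8%).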

How the data were processed

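Polyadenylated RNA of 18 libraries (6 days, 3 replicates each) was analysed from a table of estimated counts and a table of TPM per gene, both deposited by the authors. RSEM 1.3.3, STAR 2.7.8a, FastQC 0.11.8, cutadapt 2.3 and GRCm38 are named in the submitters' processing notes. Annotation release and strandedness: not given in the sources used here. The estimated counts deposited by the authors were used as whole numbers, and the TPM deposited by the authors carry no depth. The 5 reporter entries, with 0 counts, were left out.

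Members and lists were chosen with earlier results of these data known. The 22 lists hold 509 genes, 508 found by symbol and 1 by synonym, and each was tested. The filterByExpr rule of edgeR 4.0.16 (R 4.3.3) left 18754 genes. They were fitted in 1 model of 6 day means with TMM scaling and the quasi-likelihood F test, with Benjamini-Hochberg adjustment over all 18754 genes and a call at an adjusted p under 0.05. The SE is the log2 fold change divided by the square root of F, and log2 CPM used a prior count of 2. The procedure was tested on simulated data with known changes.

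Alternatives were DESeq2 size factors, DESeq2's Wald test (1.42.0), no filter, library sizes alone, leaving out mitochondrially encoded genes, the days compared only, the replicate letter as a block, limma 3.58.1 on log2(TPM + 1) with and without a filter at a mean TPM of 0.5 and on log2(TPM + 0.1), and leaving out each library.

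Named genes are 12 members fixed by role, the 3 called members with the largest rise and fall of each comparison with at least 5 CPM, and the members nearest to and farthest from the mean profile. Not each is printed, and some further members are named beside these for their calls. Positions come from GENCODE vM21 and promoters from RefSeq (GRCm38.p6). The stretch of 1 promoter is not reported here. Replicate libraries differed by more than sampling noise (chi-square over degrees of freedom from 6.59 upward).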

Additional observations from a re-analysis of the deposited data

How the results depend on the processing

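The scale of the values moved the results most. The median change of the members against day 0 turned to 0.11 on day 2 and 0.068 on day 4 with library sizes alone. On log2(TPM + 1) it was 0.20, 0.23 and 0.035 on days 2, 4 and 14, with the same values without the filter, and on log2(TPM + 0.1) 0.21, 0.24 and 0.036. With library sizes alone, 23 members were higher and 33 lower on day 1, 32 and 24 on day 2, 29 and 22 on day 4, 17 and 40 on day 7 and 20 and 43 on day 14. From day 1 to day 2 the counts were 39 and 6, and from day 7 to day 14 they were 3 and 3. On log2(TPM + 1) they were 27 and 31, 39 and 21, 44 and 15, 28 and 23, and 30 and 20 on days 1, 2, 4, 7 and 14, then 37 and 6 from day 1 to day 2, 2 higher from day 4 to day 7, and 7 and 3 from day 7 to day 14. On log2(TPM + 0.1) the same counts were found except for 27 higher on day 7. Without the filter on TPM the counts were 26 and 28, 36 and 20, 42 and 15, 27 and 22, 30 and 20, then 35 and 6, and 7 and 2. Shares of all genes are given above for library sizes alone and log2(TPM + 1), against day 0 and from day 1 to day 2. For the other fits and steps of this paragraph they are not given here, so those counts describe the members alone. Directions that turned on both TPM scales were those of Mrps18c on day 1 (0.013) and day 14 (0.080), Mrps34 on day 14 (0.013) and Mrps5 on day 1 (0.18) and day 14 (0.057, and 0.058 with 0.1 added). Mrps30 on day 14 turned to 0.24 with library sizes alone and to 0.47 and 0.49 with 1 and 0.1 added to TPM, and Mrpl23 on day 14 to 0.32, 0.58 and 0.58.

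Fitting the days compared alone gave 20 members higher on day 1, 0 higher from day 4 to day 7 and 0 lower from day 7 to day 14. The shares of all genes under the fits of this paragraph are not given here, so its counts describe the members alone. The 1 rise from day 4 to day 7 became 0 with DESeq2 size factors, without a filter on counts and with DESeq2's Wald test. Without a filter on counts 3 members fell from day 7 to day 14, and DESeq2's Wald test called 1 higher there. Leaving out 1 library at a time gave 7 to 14 higher on day 4, 7 to 14 higher from day 1 to day 2, 10 to 23 lower from day 2 to day 4, 0 to 4 higher and 40 to 50 lower from day 4 to day 7, and 0 to 2 higher and 3 to 11 lower from day 7 to day 14. The replicate letters were not taken to pair the libraries, since the labels do not say so. Correlations of deviations from the day means could not settle it. Of 45 same-letter pairs 8 correlated above 0.1, with a median of 0.025, against -0.008 for pairs of other letters. Of 18 libraries 12 correlated best with their own letter. With the replicate block 1 member rose from day 7 to day 14, and the other counts stayed within 1.5 times. In an arm left with fewer libraries, the spread is taken from all days. Depth was no limit for these genes, since each had at least 394 counts in every library.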
